A study of Mus musculus with 9 samples.

Results

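Gene expression in the prefrontal cortex (PFC) was compared between the 3 libraries labelled Rag1-/- + WT EVs, replicates 2, 3 and 5, and the 3 libraries labelled WT, replicates 1, 3 and 6. These are 6 of the 9 RNA sequencing libraries of the series, chosen by their genotype and treatment labels. The other 3 libraries, Rag1-/- + vehicle, lent their spread to the fit and are given beside the results. EV libraries, vehicle libraries and WT libraries below stand for the libraries so labelled. All mice were males on a C57BL/6 background, 8 to 12 weeks old by the general statement in the study's methods, and were perfused with saline before dissection. EV mice lacked functional Rag1 and received extracellular vesicles from the blood of wild-type (WT) mice by intravenous injection. WT mice carried no Rag1 deletion, and their treatment is listed as none, although their titles bear the same mark, med, as the vehicle titles. The study's supplementary descriptions name WT mice injected with medium. The EV and WT libraries therefore differed in genotype and in the injected vesicles, and the part of each cannot be told apart in this comparison. The labels do not state that each library came from a separate mouse, while the study's figure legend gives 3 mice per group. The p-values reflect only how far these libraries spread.

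Rag1 encodes a subunit of the recombinase that assembles antigen receptor genes, and mice without it lack mature T and B lymphocytes. Extracellular vesicles are membrane-bound particles that cells release into blood and that carry protein, messenger RNA and microRNA. The PFC is covered by meninges, whose fibroblasts lay down collagens and proteoglycans, take up solutes through organic anion and amino acid transporters, and make retinoic acid and bone morphogenetic proteins. Tissue taken from the cortical surface can hold neurons, glia, vessels, blood and meninges in varying shares. In bulk tissue, fewer cells of a type and less RNA per cell cannot be told apart.

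The comparison addressed how close the PFC of vesicle-treated Rag1-/- mice came to that of WT mice. In other experiments of the study, vesicles were loaded with a pair of microRNAs, miR-103-3p and miR-23a-3p. Protein kinase C epsilon, encoded by Prkce, was followed there as protein by immunostaining. The study had selected Prkce with the help of its PFC RNA sequencing, from genes higher in Rag1-/- mice and lower after vesicles. The mature sequences are shown because a microRNA finds its targets by its seed, and they come from RefSeq on GRCm38.p6. Capitals mark the seed, bases 2 to 8.
mmu-miR-23a-3p, from Mir23a at chr8:84208563-84208583 on the plus strand: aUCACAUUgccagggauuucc
mmu-miR-103-3p, from Mir103-1 at chr11:35782447-35782469 and Mir103-2 at chr2:131288103-131288125, both on the plus strand: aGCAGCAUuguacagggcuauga
The longest annotated 3' UTR of Prkce, 3232 bases in GENCODE M21, was searched on its sense strand for the letters complementary to each seed. The letters for miR-103-3p, ATGCTGC, were found 1 time, starting at base 27 of the UTR. The stretch around them lies at chr17:86654703-86654731 on the plus strand of GRCm38, and its capitals mark the match.
Prkce, match to the miR-103-3p seed: ggagggagctcATGCTGCaaggacggtgt
The letters for miR-23a-3p, AATGTGA, were found 0 times in this window, which says only that they are not in it. The study shows predicted pairings of both microRNAs with the Prkce 3' UTR, taken from the prediction tool TargetScan. The search here took only exact matches to bases 2 to 8 in the longest annotated UTR. It would miss other forms of site and sites in other annotations.

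Prkce was abundant in all libraries and its levels in the EV and WT libraries overlapped. Counts scaled to library size by the trimmed mean of M values, per M reads in genes (CPM; M, mega), were 542, 486 and 453 for Prkce in EV replicates 2, 3 and 5 and 473, 515 and 430 CPM in WT replicates 1, 3 and 6. Vehicle replicates 1, 2 and 3 stood at 593, 606 and 605 CPM, above all 6. The study selected Prkce partly by this order of groups, so the order is no separate evidence. The log2 fold change of Prkce, EV over WT, was 0.06 (standard error, SE, 0.0983, edgeR adjusted p = 0.778), and its sign turned without WT replicate 6. A p of this size does not show that the levels were equal.

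Reads assigned to genes numbered 32 to 35.1 M in the EV libraries and 33.8 to 37.1 M in the WT libraries, so depth was similar. One WT library stood apart. Reads aligned outside annotated exons took 8.24, 7.73 and 11.2% of the reads in genes, outside exons or in overlaps of genes in EV replicates 2, 3 and 5, against 10.9, 8.11 and 30.1% in WT replicates 1, 3 and 6. WT replicate 6 also had 21389 genes with at least 10 reads, against 16326 to 17662 in the other 8 libraries. The mean share outside exons was 9.06% ± 1.88 in the EV and 16.4% ± 12 in the WT libraries (SD, n = 3 each, exact permutation test, 2-sided p = 0.5, where 3 against 3 libraries cannot go below 0.1). The medians of gene lists are given with and without WT replicate 6.

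**Figure D1:**
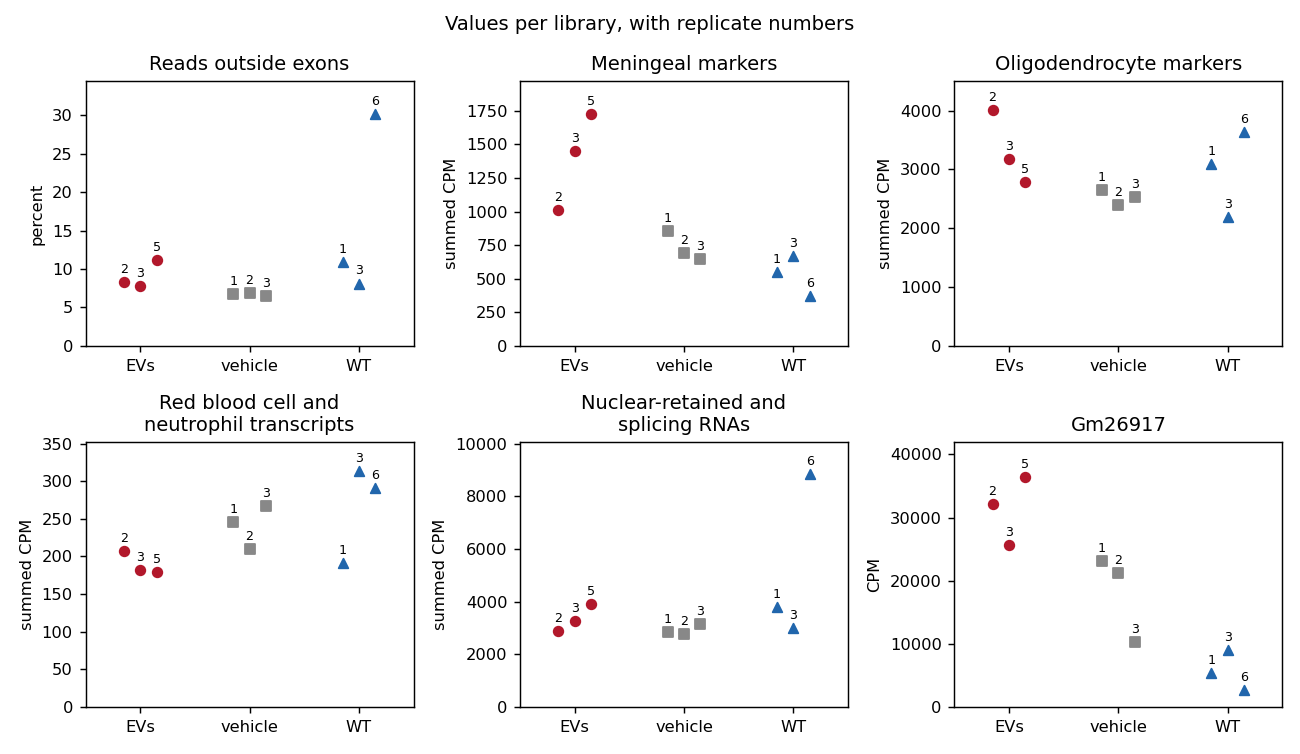
Values per library in 6 panels, with the EV libraries on the left, vehicle in the middle and WT on the right, and the replicate number above each point: percent of reads outside exons, summed CPM of 4 gene lists, and CPM of the non-coding gene Gm26917. WT replicate 6 stood at 30.1% of reads outside exons and at 8851 summed CPM of nuclear-retained and splicing RNAs, while the 3 EV libraries stood above the 3 WT libraries in meningeal markers and in Gm26917.

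The targeted gene, Rag1 (chromosome 2, 101638282 to 101649501, minus strand, GRCm38), was counted at 6.8, 7.32 and 6.26 CPM in EV replicates 2, 3 and 5, against 1.09, 0.842 and 0.232 CPM in WT replicates 1, 3 and 6. It was higher in every library labelled Rag1-/-, vehicle included (7.82, 7.04 and 6.85 CPM), and the groups did not overlap. The log2 fold change was 3.25 (SE 0.337, edgeR adjusted p = 0.0173). Read counts over the whole gene do not show whether a functional transcript was made, and the labels do not describe the allele, so directions are given between libraries as labelled. Rag2, its partner in the recombinase, was too low to test, at 0 to 0.196 CPM in EV and 0.0294 to 0.103 CPM in WT libraries. Within 10 Mb of Rag1, 95 other genes were tested and 0 passed, where 0.0446% of all genes did. EV libraries lay wholly above WT libraries for 10 of the 95 and wholly below for 8, where 8.72% and 7.73% of all genes did. By unadjusted p the leading genes of the 95 were Pex16, Pamr1 and Alx4, chosen after their values were seen. Pamr1 stood at 41.1, 35.8 and 36.3 CPM in EV libraries, 34.1, 39.9 and 39.3 CPM in vehicle libraries and 26.8, 26.4 and 19.5 CPM in WT libraries (edgeR adjusted p = 0.0978).

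Few genes separated the EV from the WT libraries past the threshold. The quasi-likelihood test of edgeR, adjusted by Benjamini-Hochberg over 17948 genes, called 8 at an adjusted p under 0.05 (0.0446% of those tested), 7 higher in EV libraries (0.039%) and 1 lower (0.00557%). At an unadjusted p under 0.05 there were 1496 higher (8.34%) and 1448 lower (8.07%). The 3 EV libraries lay wholly above the 3 WT libraries for 1565 genes (8.72%) and wholly below for 1388 (7.73%). The 8 genes were Rag1, Slc6a13, Bmp6, Islr, Stoml1, Btaf1, Osr1 and Mrc2. All 8 are protein-coding, and in none of them did an EV library overlap a WT library. The count depended on the tool and on single libraries. DESeq2 on the same 9 libraries called 410 genes (2.28%), 272 higher (1.52%) and 138 lower (0.769%), while edgeR on the 6 compared libraries alone called 0, with 1890 at an unadjusted p under 0.05. Leaving out 1 library gave 0 calls without EV replicate 5, vehicle replicate 2 or vehicle replicate 3, with 2416, 2490 and 2647 genes at an unadjusted p under 0.05. Dropping EV replicate 3 left 1 call, which was none of the 8, dropping WT replicate 1 left 1 and dropping vehicle replicate 1 left 2. The count grew to 24 on dropping EV replicate 2, to 46 on dropping WT replicate 6 (0.255% of 18060 tested, 41 higher and 5 lower, or 0.227% and 0.0277%) and to 1537 on dropping WT replicate 3. Each of the 8 genes kept its direction under all 19 alternatives and was among the genes called by DESeq2 and in the fit without WT replicate 6.

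**Figure D2:**
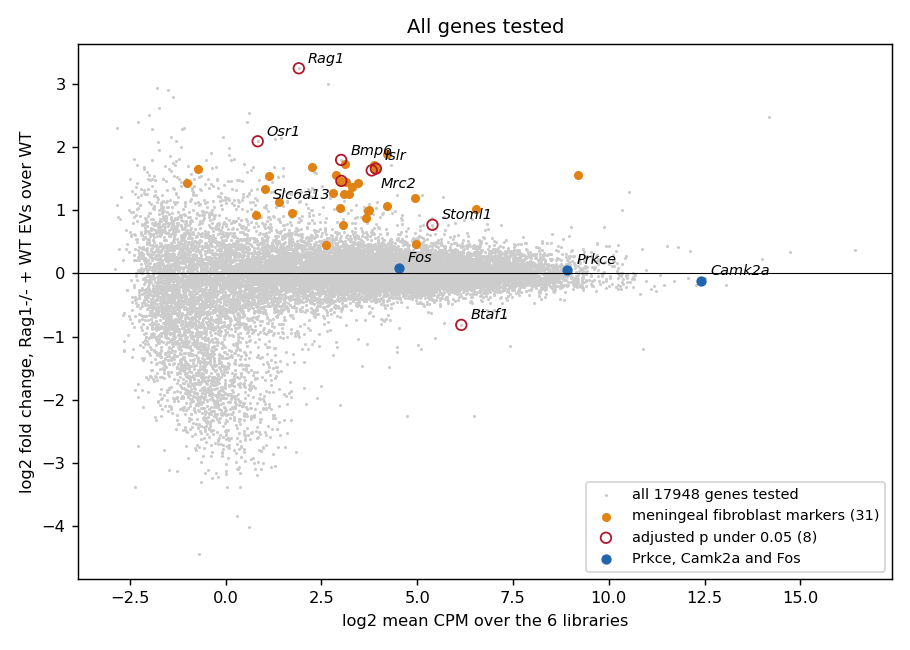
Log2 fold change, EV over WT, against the log2 mean CPM over the 6 libraries for all 17948 genes tested (grey), with the 31 meningeal fibroblast markers in orange, the 8 genes past the adjusted p threshold ringed in red, and Prkce, Camk2a and Fos in blue. All 31 meningeal markers lie above 0, and Btaf1 is the one ringed gene below 0.

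Beyond a 2-fold difference, 1253 genes had a log2 fold change below -1 and 291 above 1. Of those below -1, 1079 were not protein-coding and 869 averaged under 1 CPM. Without WT replicate 6, among the 17871 of these genes still tested, 228 lay below -1 and 371 above 1. WT replicate 6 is the library with the high share of reads outside exons, and the part of that share in these genes was not tested.

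**Figure D3:**
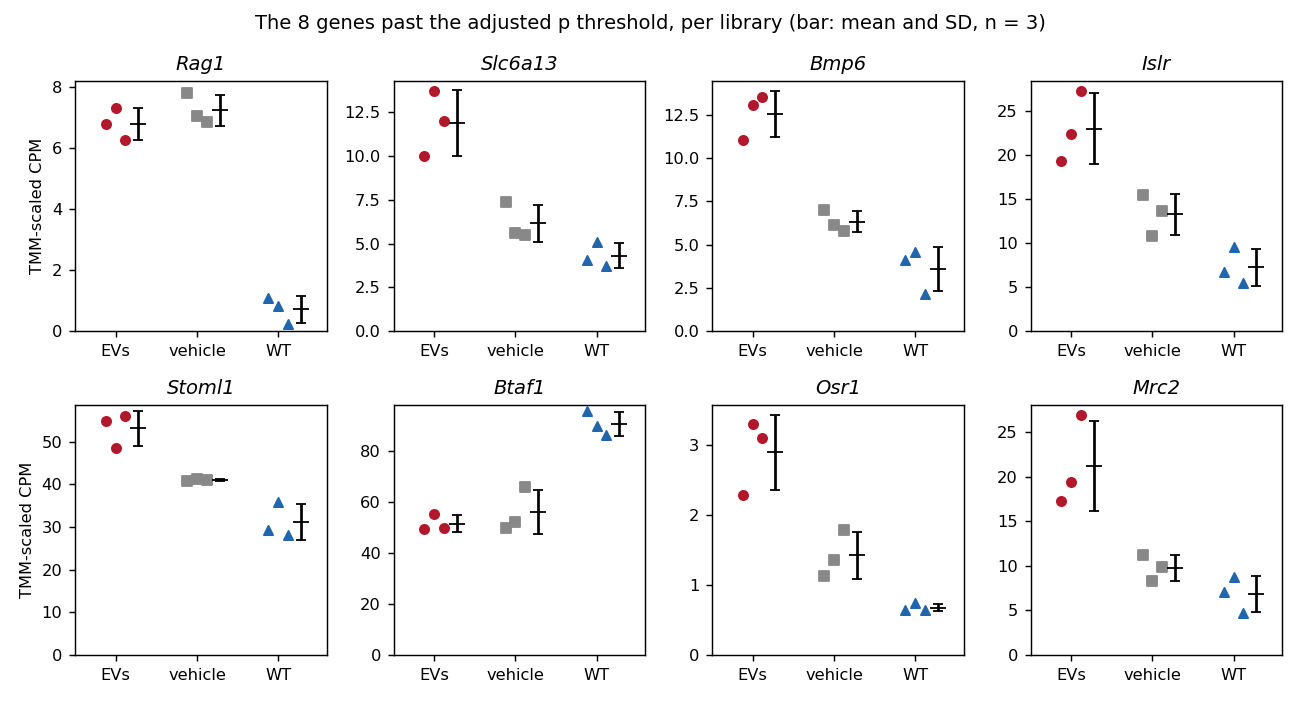
Scaled CPM of the 8 genes past the adjusted p threshold in each EV (left), vehicle (middle) and WT library (right), on linear axes from 0, with the mean and SD of 3 libraries beside the points. EV and WT libraries do not overlap in any panel, and the vehicle mean lies between them in all panels but that of Rag1.

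Of the 7 higher genes, Slc6a13 and Islr belong to the list of meningeal fibroblast markers. Slc6a13 (chromosome 6, 121300227 to 121337733) encodes GAT2, a GABA and taurine transporter of the meninges. It stood at 10, 13.7 and 12 CPM in EV replicates 2, 3 and 5, against 4.09, 5.1 and 3.73 CPM in WT replicates 1, 3 and 6. The lowest EV library was above the highest WT library. EV libraries were 2.76-fold higher (log2 fold change 1.47, SE 0.175, edgeR adjusted p = 0.0296). Vehicle libraries held 7.41, 5.61 and 5.49 CPM, between the 2 groups.

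Bmp6 (chromosome 13, 38345107 to 38500302), a secreted bone morphogenetic protein, stood at 11, 13.1 and 13.5 CPM in EV libraries, against 4.09, 4.58 and 2.16 CPM in WT libraries. WT replicate 6 was the lowest of all. Bmp6 rose by 1.80 on the log2 scale (SE 0.226, edgeR adjusted p = 0.0296), and vehicle libraries held 7.02, 6.17 and 5.82 CPM. Its exons overlap those of Txndc5 over 5.74% of their length, where reads cannot be assigned. Islr (chromosome 9, 58156268 to 58204306, minus strand), an immunoglobulin-domain protein of mesenchymal cells, stood at 19.3, 22.4 and 27.3 CPM in EV libraries, against 6.77, 9.58 and 5.48 CPM in WT libraries. The groups were well apart, with vehicle libraries at 15.5, 10.8 and 13.6 CPM. Islr rose by 1.66 on the log2 scale (SE 0.209, edgeR adjusted p = 0.0296), and 6.74% of its exonic length is shared with Islr2.

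Osr1 and Mrc2 followed the same order. Osr1 (chromosome 12, 9570116 to 9581500), a zinc finger transcription factor of embryonic mesenchyme, was scarce, at 2.29, 3.31 and 3.1 CPM in EV libraries and 0.648, 0.737 and 0.643 CPM in WT libraries. The WT libraries were close together and the fold was 4.27 (log2 fold change 2.09, SE 0.285, edgeR adjusted p = 0.0353). Mrc2 (chromosome 11, 105292643 to 105351139), an endocytic receptor that takes up collagen, stood at 17.3, 19.4 and 27 CPM in EV libraries and 7.06, 8.79 and 4.71 CPM in WT libraries. EV replicate 5 was the highest and WT replicate 6 the lowest. The log2 fold change was 1.63 (SE 0.227, edgeR adjusted p = 0.0369). Vehicle libraries held 1.13, 1.36 and 1.79 CPM of Osr1 and 11.2, 8.32 and 9.87 CPM of Mrc2.

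Stoml1 and Btaf1 belong to other functions. Stoml1 (chromosome 9, 58253164 to 58262520), a stomatin-like membrane protein of late endosomes, stood at 54.9, 48.5 and 55.9 CPM in EV libraries, against 29.3, 35.9 and 28.1 CPM in WT libraries. The 3 vehicle libraries were almost level, at 40.8, 41.2 and 41 CPM, between the groups. Stoml1 rose by 0.77 on the log2 scale (SE 0.104, edgeR adjusted p = 0.0353). Btaf1 (chromosome 19, 36926079 to 37012752) encodes an ATPase that removes the TATA-binding protein from DNA. It was the one gene that fell, at 49.3, 55.2 and 49.8 CPM in EV libraries, against 95.6, 89.7 and 86.2 CPM in WT libraries. Vehicle libraries held 49.6, 52.2 and 65.7 CPM, so every library labelled Rag1-/- was below every WT library. The log2 fold change was -0.81 (SE 0.11, edgeR adjusted p = 0.0353).

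Promoter sequences were at hand from RefSeq (GRCm38.p6, 250 bases before to 50 after the start) for 6 of the 8 genes, namely Rag1, Slc6a13, Bmp6, Islr, Stoml1 and Btaf1. Those of Slc6a13, Bmp6 and Islr are shown because these genes moved together. Capitals mark matches on either strand to the GC box letters GGGCGG.
Slc6a13, chr6:121300038-121300337, plus strand: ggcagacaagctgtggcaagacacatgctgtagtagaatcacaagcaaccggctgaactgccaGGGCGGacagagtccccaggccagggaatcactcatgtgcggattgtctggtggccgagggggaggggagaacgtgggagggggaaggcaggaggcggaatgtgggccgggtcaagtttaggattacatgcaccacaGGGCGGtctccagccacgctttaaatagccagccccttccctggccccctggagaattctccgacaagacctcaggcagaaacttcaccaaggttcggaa
Bmp6, chr13:38345466-38345765, plus strand: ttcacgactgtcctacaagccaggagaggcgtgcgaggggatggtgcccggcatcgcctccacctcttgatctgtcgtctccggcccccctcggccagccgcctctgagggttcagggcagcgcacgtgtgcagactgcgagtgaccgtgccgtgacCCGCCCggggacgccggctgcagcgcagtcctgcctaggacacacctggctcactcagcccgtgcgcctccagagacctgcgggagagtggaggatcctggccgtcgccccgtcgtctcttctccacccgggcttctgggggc
Islr, chr9:58158505-58158804, minus strand: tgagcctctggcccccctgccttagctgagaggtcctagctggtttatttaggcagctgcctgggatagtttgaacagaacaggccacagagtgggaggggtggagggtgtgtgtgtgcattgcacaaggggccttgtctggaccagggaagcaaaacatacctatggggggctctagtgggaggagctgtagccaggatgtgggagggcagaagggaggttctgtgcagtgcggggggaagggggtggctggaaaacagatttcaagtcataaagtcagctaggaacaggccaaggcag
Each of 4 motifs was searched on both strands in these windows and in the 24 promoters at hand for the meningeal list. The GC box was in 12 of the 24, against 35.9% of all 27025 promoters. The forkhead core GTAAACA was in 1 of 24 (3.52% of all), the nuclear receptor letters AGGTCA in 2 of 24 (16% of all) and the TATA box letters TATAAA in 2 of 24 (14.2% of all). A match is a description of the letters and no evidence of binding.

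Meningeal fibroblast markers were the list with the highest median. The list was chosen with earlier results of these data known, so its counts describe these libraries and test nothing. All 31 of its genes passed the filter on low counts, and all 31 had a positive log2 fold change, EV over WT, against 8617 of 17948 over all genes tested. Their median was 1.28, against -0.01 over all genes. The EV libraries lay wholly above the WT libraries for 28 of the 31, where 8.72% of all genes did, and 30 of the 31 had an unadjusted p under 0.05 with a higher EV level, where 8.34% of all genes did. Only Slc6a13 and Islr passed the adjusted threshold in edgeR, 2 of 31 against 0.039% of all genes, and DESeq2 called 22 of the 31 where it called 1.52% of all genes higher. The median stayed between 1.14 and 1.55 over the 19 alternatives, and every member tested was positive in each. The lowest median was that without WT replicate 6, where edgeR called 10 members and 0.227% of all genes higher.

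**Figure D4:**
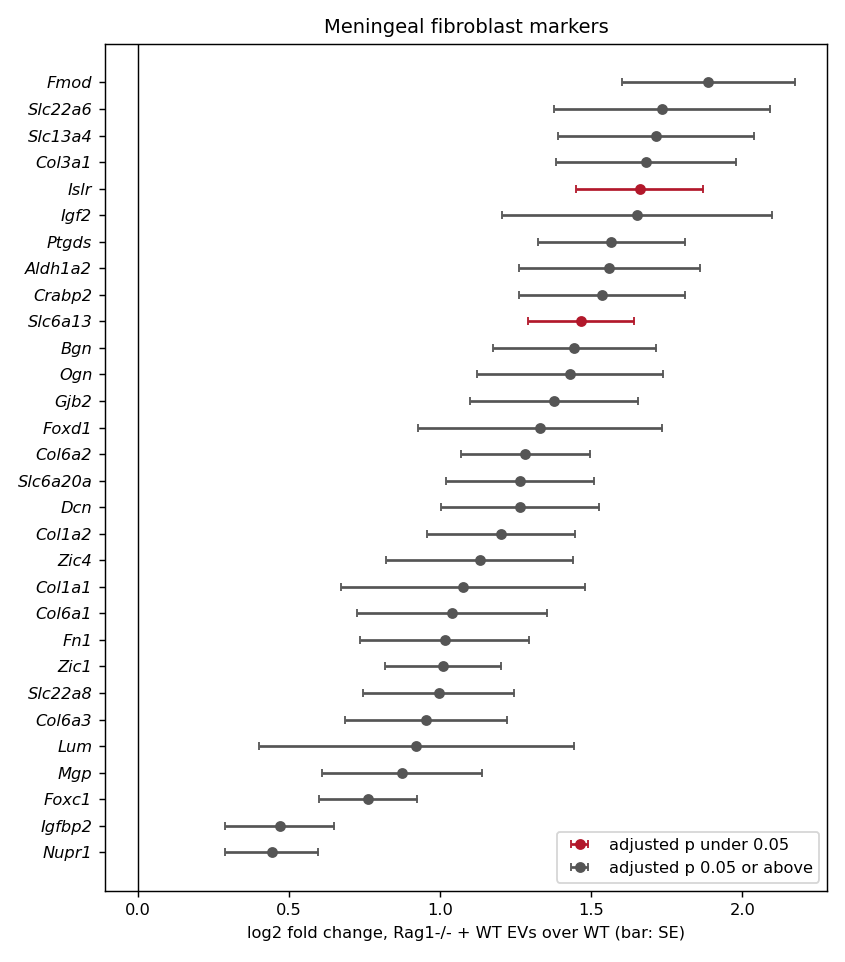
Log2 fold change, EV over WT, with its SE for 30 of the 31 meningeal fibroblast markers, those past the adjusted p threshold in red. Every value is above 0, with Fmod highest at 1.89 and Nupr1 lowest at 0.44.

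By role, the 5 transporters had log2 fold changes of 0.995 to 1.74, with a median of 1.47. Besides Slc6a13 they were the sulfate transporter Slc13a4, the organic anion transporters Slc22a6 and Slc22a8, and the proline transporter Slc6a20a. Slc22a6 stood at 6.57, 15.1 and 18.4 CPM in EV libraries and 3.97, 5.6 and 2.42 CPM in WT libraries (edgeR adjusted p = 0.107). EV replicate 2 was the lowest EV library by a wide margin but above all WT libraries. The 6 collagens ranged from 0.95 to 1.68. None of them overlapped between EV and WT libraries, where EV libraries lay wholly above for 8.72% of all genes. Col3a1, a fibrillar collagen, stood at 4.6, 8.33 and 8.97 CPM in EV libraries and 2.12, 2.68 and 2.01 CPM in WT libraries (log2 fold change 1.68, edgeR adjusted p = 0.0815). Of 7 other matrix proteins, 5 had no overlap, beside the same share of all genes. Fmod, fibromodulin, a proteoglycan that binds collagen, came closest to the threshold, at 17.5, 30.1 and 39.5 CPM in EV libraries against 7.83, 9.79 and 5.89 CPM in WT libraries (log2 fold change 1.89, edgeR adjusted p = 0.0596). The EV libraries differed more than 2-fold among themselves.

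Genes of retinoic acid and prostaglandin were close together in size. Aldh1a2, which makes retinoic acid, had a log2 fold change of 1.56 (edgeR adjusted p = 0.0931), and Crabp2, which binds it, 1.54 (0.0865). Ptgds, the prostaglandin D synthase, was the most abundant member, at 621, 904 and 1093 CPM in EV libraries and 300, 385 and 199 CPM in WT libraries. No EV library overlapped a WT library, and the log2 fold change was 1.57 (SE 0.242, edgeR adjusted p = 0.0606). None of the 5 transcription factors overlapped, where EV libraries lay wholly above WT libraries for 8.72% of all genes. Foxc1, Foxd1, Zic1 and Zic4 ranged from 0.76 to 1.33. Foxc1, a forkhead factor needed for meninges to form, stood at 8.33, 11 and 12.3 CPM in EV libraries and 7.06, 6.29 and 5.27 CPM in WT libraries. Igf2, a fetal growth factor, was at 1.65, and the binding protein Igfbp2 at 0.47 with overlapping groups. The other overlapping members were the matrix genes Mgp (0.87) and Lum (0.92).

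Within the EV group the list was lowest in replicate 2 and highest in replicate 5 for most members. Its summed level was 1009, 1450 and 1724 CPM in EV replicates 2, 3 and 5, 853, 689 and 646 CPM in vehicle replicates 1, 2 and 3, and 550, 672 and 369 CPM in WT replicates 1, 3 and 6. Without Ptgds it was 388, 546 and 631 CPM in EV libraries and 250, 287 and 170 CPM in WT libraries. EV replicate 2 was the lowest EV library for 29 of the 31 genes, and EV replicate 5 the highest for 27. WT replicate 6 was the lowest WT library for 23 of them. Col6a1, Col6a2 and Crabp2 were instead highest in WT replicate 6 among the WT libraries. The shares of all genes with these orders were not counted. The vehicle mean lay between the EV and WT means for 27 of the 31. Whether the dissected pieces held different amounts of meninges was not tested.

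Outside the list, other genes of perivascular and connective tissue cells were near the threshold without passing it. Anpep, an aminopeptidase of pericytes and fibroblasts, stood at 5.31, 8.26 and 9.36 CPM in EV libraries and 2.71, 3.29 and 1.65 CPM in WT libraries (log2 fold change 1.58, edgeR adjusted p = 0.0646). Thbs2, a matrix thrombospondin, stood at 10.1, 13.8 and 10.2 CPM in EV libraries and 6.06, 6.16 and 4.76 CPM in WT libraries (1.01, edgeR adjusted p = 0.0596). Neither gene had overlapping groups. Bmp7, chosen after its values were seen, stood at 12.3, 16.4 and 20.3 CPM in EV libraries and 8.95, 8.81 and 5.89 CPM in WT libraries (1.05, edgeR adjusted p = 0.0931). Pericyte and smooth muscle markers as a list, 15 of 16 tested, had 0 calls, a median of 0.22 and -0.06 without WT replicate 6. In 3 members, Anpep, Vtn and Cspg4, EV libraries lay wholly above WT libraries, and in 0 wholly below, where 8.72% and 7.73% of all genes did. At an unadjusted p under 0.05, 5 members were higher and 1 lower, where 8.34% and 8.07% of all genes were. The pericyte gene Rgs5 lay on the other side, at 80.4, 96.6 and 129 CPM in EV libraries and 192, 125 and 141 CPM in WT libraries, with a small overlap. Endothelial markers, 25 of 25 tested, had 0 calls, 0 members without overlap, where 8.72% of all genes lay wholly above and 7.73% wholly below, and a median of 0.11 (-0.05 without WT replicate 6, with 8 of 25 positive against 15 of 25).

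**Figure D5:**
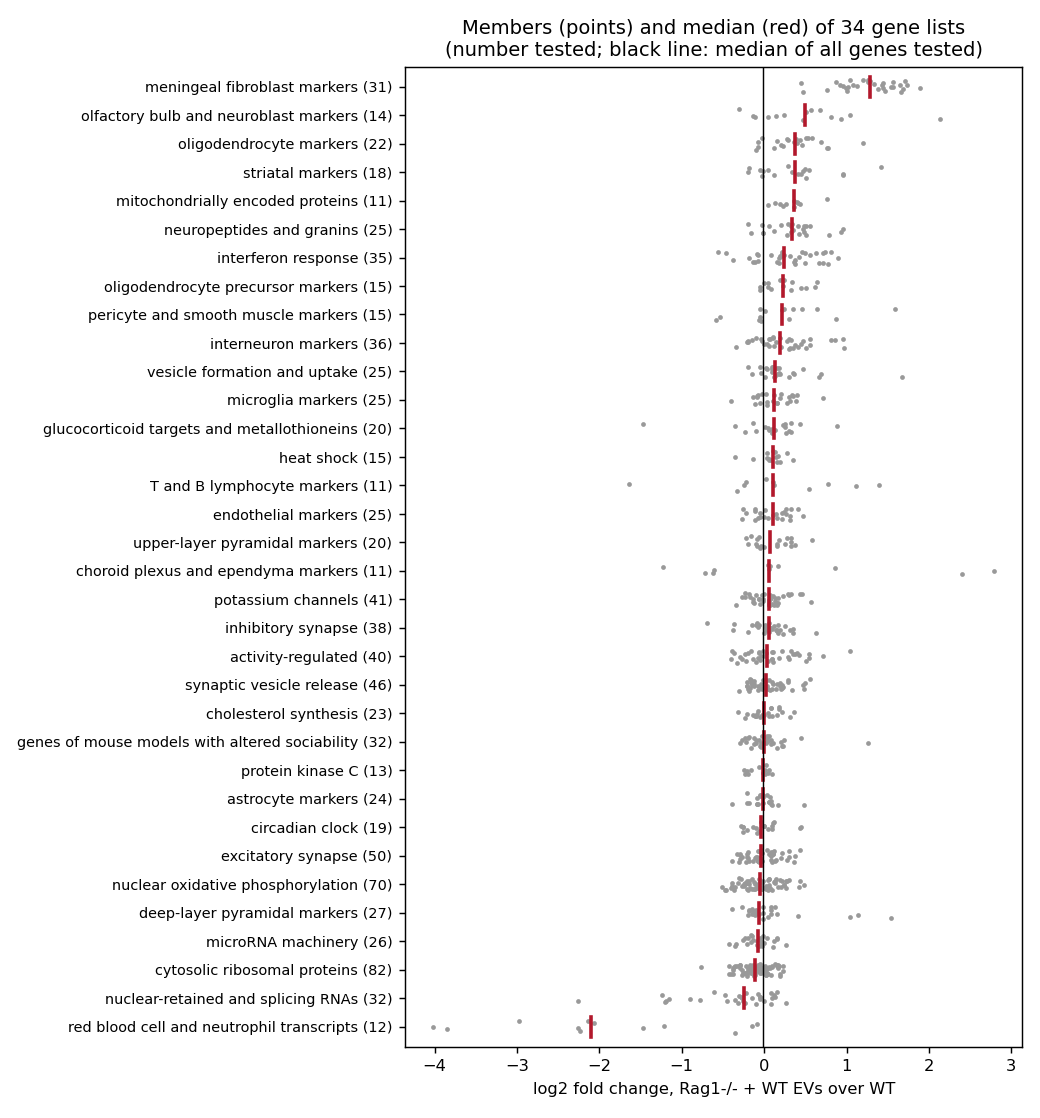
Log2 fold change, EV over WT, of each tested member (grey points) and the median (red) of 34 gene lists, with the number tested in parentheses and the median of all genes as a black line. Meningeal fibroblast markers have the highest median, 1.28, and red blood cell and neutrophil transcripts the lowest, -2.10.

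The other 33 lists had 0 members past the edgeR adjusted threshold. Oligodendrocyte markers were shifted upward in EV libraries without a call. Of 22 tested, 7 had EV libraries wholly above WT libraries and 0 the reverse, where 8.72% and 7.73% of all genes did. The median was 0.38 (0.35 without WT replicate 6, with 22 of 22 positive, and 0.22 without EV replicate 2). Apod, a lipid carrier also made by fibroblasts, stood at 62.7, 77.3 and 72.2 CPM in EV libraries and 37.3, 33.4 and 21.5 CPM in WT libraries, just above the threshold (log2 fold change 1.20, edgeR adjusted p = 0.0509). The myelin genes Cldn11 (0.69, edgeR adjusted p = 0.0978) and Mog (0.76, 0.102) came next, at 78.7, 58.8 and 56.7 CPM and at 34.2, 25.8 and 23.1 CPM in EV libraries, against 46.4, 37.8 and 36.5 CPM and 19.7, 14.3 and 15.1 CPM in WT libraries. Both were highest in EV replicate 2, the EV library lowest in meningeal markers. Mbp and Mobp, also of myelin, had log2 fold changes of -0.03 and -0.08. The summed level of the list overlapped between groups, at 2787 to 4004 CPM in EV and 2188 to 3639 CPM in WT libraries. Precursor markers, 15 tested, had a median of 0.22 (0.12 without WT replicate 6), with the receptor Pdgfra at 60.4, 58.2 and 55.7 CPM in EV libraries and 45, 49.5 and 28.4 CPM in WT libraries (0.50, edgeR adjusted p = 0.233).

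Markers of tissue bordering the PFC were also measured. Striatal markers, 18 of 20 tested, had a median of 0.38 (0.27 without WT replicate 6 and 0.09 without EV replicate 2), with Ppp1r1b at 54.5, 38.5 and 42.5 CPM in EV libraries and 29.2, 39.5 and 24.4 CPM in WT libraries. Their summed level was 911 to 1086 CPM in EV and 873 to 943 CPM in WT libraries, which overlap. Olfactory bulb and neuroblast markers, 14 of 18 tested, had a median of 0.49 (0.34 without WT replicate 6), which became 0.25 on dropping EV replicate 2 and 0.78 on dropping WT replicate 3, and Cdhr1, a cadherin of mitral cells, stood at 8.45, 1.56 and 1.83 CPM in EV libraries and 0.795, 1.42 and 0.489 CPM in WT libraries. Its fold rested on EV replicate 2. Choroid plexus and ependyma markers, 11 of 16 tested, had a median of 0.06 (0.11 without WT replicate 6). Ttr, the transthyretin made in quantity by choroid plexus, was at 3.17, 2.11 and 2.22 CPM in EV libraries and 0.5, 0.316 and 0.592 CPM in WT libraries (2.41, edgeR adjusted p = 0.187). The part of dissection in these levels was not tested.

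Blood transcripts lay lower in EV libraries, without passing. All 12 of the 19 red blood cell and neutrophil transcripts that could be tested had negative log2 fold changes (median -2.10, -1.91 without WT replicate 6 and -1.04 without WT replicate 3), and 4 had EV libraries wholly below WT libraries, where 7.73% of all genes did. The neutrophil gene S100a9 stood at 0.147, 0.214 and 0.163 CPM in EV libraries and 1.06, 7.21 and 0.36 CPM in WT libraries (-4.02, SE 1.06, edgeR adjusted p = 0.184). WT replicate 3 was far above the other 5 libraries. The globin gene Hbb-bt stood at 0.85, 1.01 and 0.652 CPM in EV libraries, 4.84, 0.372 and 1.67 CPM in vehicle libraries and 1.56, 5.24 and 5.07 CPM in WT libraries (-2.24, edgeR adjusted p = 0.225). With the replicate block, a fit that pairs libraries by number, the median was -0.67. The summed level of the list overlapped, at 180 to 207 CPM in EV and 191 to 313 CPM in WT libraries. Residual blood after perfusion was not measured otherwise. T and B lymphocyte markers, 11 of 29 tested, were near the floor in both groups, with summed levels of 33 to 37.5 CPM in EV and 33.8 to 44.4 CPM in WT libraries. Cd3d, Cd3g, Cd28 and Cd8b1 were listed at 0 in all 6 libraries. The list had a median of 0.11 (0.17 without WT replicate 6), with Cd4 at 1.39 (edgeR adjusted p = 0.262) and the B cell factor Pax5 at -1.64 (0.222).

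Glial and interferon lists showed smaller differences. Astrocyte markers, 24 tested, had a median of -0.02 (-0.09 without WT replicate 6), with 10 positive and 14 negative. Cldn10, the leading member by p, was lower in EV libraries (-0.39, edgeR adjusted p = 0.151). It stood at 19.8, 19 and 20.3 CPM in EV libraries and 27.9, 23.6 and 26 CPM in WT libraries. Gfap, the intermediate filament that marks reactive astrocytes, stood at 122, 110 and 117 CPM in EV libraries, 79, 53.1 and 42.8 CPM in vehicle libraries and 82.6, 86.3 and 82.3 CPM in WT libraries (0.48, edgeR adjusted p = 0.242). Its EV libraries were above all others. Microglia markers, 25 of 26 tested, had a median of 0.12 and 0.01 without WT replicate 6. Olfml3, a secreted matrix protein of microglia, was at 0.72 (edgeR adjusted p = 0.168), and the complement gene C1qb was at 0.35 (0.266). The Fc receptor gene Fcgr3 went the other way, at -0.40 (edgeR adjusted p = 0.236). It stood at 8.91, 9.21 and 8.19 CPM in EV libraries and 12.8, 10.8 and 11.2 CPM in WT libraries. Of the 25 members, 17 were positive and 8 negative. Trem2 was listed at 0 in all 6 libraries, as was the broadly used splicing factor Srsf1, so nothing is read from such zeros. Interferon response genes, 35 of 38 tested, had a median of 0.24 (0.18 without WT replicate 6), with 9 wholly above and 1 wholly below WT, where 8.72% and 7.73% of all genes did. Without WT replicate 1 the median was 0.38. Stat2, which relays the interferon signal, stood at 16, 15.9 and 16 CPM in EV libraries and 12.5, 12.3 and 12.5 CPM in WT libraries. The replicates were tight and the groups apart, yet the edgeR adjusted p was 0.172 at a log2 fold change of 0.36. The class I antigen presentation genes H2-K1 (0.73, edgeR adjusted p = 0.184) and H2-D1 (0.67, 0.213) were also higher in every EV library than in any WT library, with vehicle libraries at 13, 11.9 and 12.8 CPM of H2-K1 and at 27.2, 20.4 and 22.8 CPM of H2-D1.

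Neuronal lists were centred close to 0. Inhibitory synapse genes, 38 tested, had a median of 0.05 (-0.04 without WT replicate 6), excitatory synapse genes, 50 tested, -0.04 (-0.07), and genes of synaptic vesicle release, 46 tested, 0.02 (-0.05), with 0 calls in each. Gphn, gephyrin, the scaffold of inhibitory receptors, stood at 57, 62.8 and 55.3 CPM in EV libraries and 58.5, 61.3 and 52.8 CPM in WT libraries (0.02, SE 0.09, edgeR adjusted p = 0.929). Its groups overlapped. Igsf9b, an adhesion protein of inhibitory synapses, stood apart, at 117, 126 and 115 CPM in EV libraries and 189, 153 and 237 CPM in WT libraries (-0.70, edgeR adjusted p = 0.21). Gabrd, the delta subunit of extrasynaptic receptors, stood at 57.9, 67.7 and 63.6 CPM in EV libraries and 39.9, 55 and 27.5 CPM in WT libraries (0.63, edgeR adjusted p = 0.225). For both of these genes WT replicate 6 was the WT library farthest from the EV libraries.

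Among excitatory synapse genes 11 of 50 had EV libraries wholly below WT libraries and 0 wholly above, where 7.73% and 8.72% of all genes did. At an unadjusted p under 0.05, 8 members were lower and 4 higher, and the leading higher one was the glutamate receptor gene Grm5, at 307, 315 and 284 CPM in EV libraries and 237, 290 and 205 CPM in WT libraries (0.31, edgeR adjusted p = 0.256), with overlap. Homer1, a postsynaptic scaffold, stood at 310, 314 and 253 CPM in EV libraries and 351, 362 and 392 CPM in WT libraries (-0.33, edgeR adjusted p = 0.214). Cacng2, stargazin, which anchors AMPA receptors, was at -0.29 (edgeR adjusted p = 0.241). Camk2a, the kinase of the postsynaptic density, stood at 4685, 5152 and 5840 CPM in EV libraries and 5480, 5514 and 6005 CPM in WT libraries (-0.12, SE 0.105, edgeR adjusted p = 0.591), with overlap. Activity-regulated genes, 40 of 42 tested, had a median of 0.03 with 22 positive, and of -0.10 with 14 positive without WT replicate 6. Fos varied widely within groups, at 33.8, 25.5 and 11.8 CPM in EV libraries and 34.8, 15.9 and 16.2 CPM in WT libraries (0.09, SE 0.417, edgeR adjusted p = 0.93). Egr3 was steadier, at 135, 159 and 123 CPM in EV libraries and 184, 189 and 171 CPM in WT libraries, without overlap (-0.39, edgeR adjusted p = 0.184). The 13 tested protein kinase C genes had a median of -0.02 (-0.11 without WT replicate 6), 0 calls and a range from -0.25 to 0.09. Prkcz stood at 250, 252 and 256 CPM in EV libraries and 286, 287 and 297 CPM in WT libraries (-0.20, edgeR adjusted p = 0.246), the leading member by p. Its groups did not overlap, and the difference was small.

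Interneuron markers, 36 of 38 tested, had a median of 0.20 and of 0.03 without WT replicate 6. Ndnf, a secreted protein of layer 1 interneurons, lay nearest to the threshold, at 24.5, 23.6 and 20.1 CPM in EV libraries, 18.5, 20.8 and 18.3 CPM in vehicle libraries and 12.5, 13.8 and 8.59 CPM in WT libraries (0.97, SE 0.159, edgeR adjusted p = 0.0646). All 6 libraries labelled Rag1-/- were above the WT libraries. Upper-layer and deep-layer pyramidal markers had medians of 0.08 and -0.06, and of -0.05 and 0.01 without WT replicate 6. Neuropeptides and granins, 25 of 27 tested, had a median of 0.34 (0.15 without WT replicate 6 and 0.58 without WT replicate 3), with the opioid precursor Penk at 35.5, 22.5 and 22.9 CPM in EV libraries and 11.8, 22.8 and 6.97 CPM in WT libraries. One WT library reached the EV range for Penk.

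On the lower side, genes chosen by unadjusted p followed Btaf1 without passing. Those described here are Tmem68, the cyclic AMP-responsive factor Crem, Fam53b, the small GTPase Rap1b, the reelin receptor Lrp8, Spred3, the complex I subunit Ndufs4 and the claudin Cldn10. Their log2 fold changes ran from -0.51 to -0.32. Crem stood at 16.7, 15.9 and 17.1 CPM in EV libraries, 16.8, 16.8 and 17.5 CPM in vehicle libraries and 21.1, 21.8 and 26.3 CPM in WT libraries (-0.48, edgeR adjusted p = 0.116). Its EV libraries were close together and its WT libraries spread above them. The vehicle mean lay nearer the EV than the WT mean for Crem, Tmem68, Fam53b and Rap1b, while for Lrp8 and Spred3 it lay nearer WT. Genes of microRNA silencing, 26 of 27 tested, had a median of -0.07 with and without WT replicate 6, with 20 negative. EV libraries lay wholly below WT libraries for 5 and wholly above for 2, where 7.73% and 8.72% of all genes did. Ago2, the slicing Argonaute, stood at 148, 154 and 136 CPM in EV libraries and 190, 178 and 191 CPM in WT libraries (-0.35, edgeR adjusted p = 0.184). Genes of vesicle formation and uptake, 25 tested, had a median of 0.13 (0.03 without WT replicate 6). EV libraries lay wholly above WT libraries for 8 of them and wholly below for 2, beside the same shares of all genes. The tetraspanin Cd151 stood at 16.6, 16.3 and 19.6 CPM in EV libraries and 11, 13.7 and 7.8 CPM in WT libraries (0.69, edgeR adjusted p = 0.174).

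Mitochondrially encoded genes lay higher in EV libraries without a call, and ribosomal protein genes lay close to 0. The 82 cytosolic ribosomal protein genes had a median of -0.11 (-0.02 without WT replicate 6), and the 70 tested nuclear genes of oxidative phosphorylation -0.05 (-0.04 without WT replicate 6). All 11 tested mitochondrially encoded genes had positive log2 fold changes (median 0.36, 0.50 without WT replicate 6, and 0.20 without EV replicate 5 or without WT replicate 3), with summed levels of 28148 to 40423 CPM in EV and 19944 to 35490 CPM in WT libraries, which overlap. Nuclear-retained and splicing RNAs, 32 of 35 tested, had a median of -0.24, and of 0.01 without WT replicate 6. Kcnq1ot1, a long nuclear RNA, stood at 19.1, 24.3 and 50.4 CPM in EV libraries and 47.6, 22.8 and 377 CPM in WT libraries, so its log2 fold change of -2.26 rested on that library. Gm26917 (chromosome 17, 39843013 to 39846341), annotated as a long non-coding RNA and chosen after its values were seen, had many reads and lay far apart between groups. It stood at 32201, 25610 and 36462 CPM in EV libraries, 23108, 21153 and 10243 CPM in vehicle libraries and 5298, 9005 and 2679 CPM in WT libraries (2.47, SE 0.404, edgeR adjusted p = 0.0646). No EV library overlapped a WT library, and the gene's share of reads varied more than 3-fold within WT. Which RNA the reads counted at this position came from was not tested.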

How the data were processed

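PFC RNA was sequenced by the authors as 75 bp pairs (directional kit), aligned with STAR (2.7.5c) to GRCm38 with GENCODE M24 after bcl2fastq (2.18.0.12), and counted over exons with HTSeq (0.11.1 per the labels) without regard to strand and at a minimum alignment quality of 10. The deposited values are raw counts per gene, 1 table of 9 libraries, and the authors' 5 counter summary lines stayed out of library sizes and tests. Of these, reads outside exons were 6.54 to 30.1% and ambiguous reads 3.1 to 4.31% of the reads in genes or in these 2 lines. Strand was not used, so overlapping genes are uncertain. Gene IDs were matched to GENCODE M21 (55230 of 56246, 98.19%).

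The fit held all 9 libraries (edgeR 4.0.16 under R 4.3.3). Genes were kept by filterByExpr at a minimum count of 10 and a total of 15, libraries were scaled by TMM, and quasi-likelihood tests were 2-sided, with Benjamini-Hochberg adjustment over 17948 genes. SEs are the absolute log2 fold change divided by the square root of F. Intervals and p-values rest on 3 libraries per group. Between pairs of libraries of a group, the variance of counts was a multiple of counting noise (chi-square per degree of freedom). The multiple was 17.6 to 25.7 for EV pairs and 36.7 to 110 for WT pairs, highest for WT replicates 3 and 6. The fit was tested on simulated data. Lists are described by counts and medians, with no test of a list. Members and lists were chosen with earlier results of these data known.

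Named genes were Rag1, Rag2, Prkce, Gphn, Camk2a and Fos. Per direction, up to 15 protein-coding genes were named that passed, averaged 1 CPM and did not overlap, filled to 10 by unadjusted p. Up to 4 members per list were named by p. Other genes were named with their values known, and not all of them are marked so. Among those unmarked are further meningeal members, Mbp and Mobp. A few genes that this rule or a list names are not reported here. Alternatives were DESeq2 (1.42.0) on 9 or 6 libraries or its size factors, edgeR on 6 libraries, limma-voom (3.58.1) with quality weights, other filters, a replicate block, a covariate for reads outside exons, GC and length offsets, and each library left out. Figures were drawn in Python 3.11.15.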

Additional observations from a re-analysis of the deposited data

How the results depend on the processing

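The 8 calls (7 higher, 1 lower in EV libraries) became 410 (272 and 138) with DESeq2 on 9 libraries, 173 (135 and 38) with DESeq2 on 6, 0 (0 and 0) with edgeR on 6, 188 (171 and 17) with voom and quality weights, 668 (365 and 303) with no filter, 20 (19 and 1) at 1 CPM in 3 libraries and 28 (26 and 2) with a covariate for reads outside exons. GC and length offsets gave 8 higher and 0 lower. With the replicate block, 5 were called (5 higher, 0 lower); the EV and WT groups share only replicate number 3 (correlation of deviations 0.105), so the numbers were not shown to pair. Leaving out 1 library gave 0 to 1537 calls, 0 to 891 higher and 0 to 646 lower. Genes tested numbered 17948, or 17473 with 6 libraries, 35137 with no filter, 14194 at 1 CPM and 17914 with the offsets. With 1 library left out, 18060 to 19015 genes were tested. Meningeal members called, 2 of 31, were 22 and 17 with DESeq2 on 9 and 6 libraries, 0 with edgeR on 6, 15 with voom, 26 with no filter, 4 at 1 CPM, 1 with the replicate block, 7 with the covariate and 0 to 24 with 1 library left out, while the median fold kept its sign under all 19. The cause of these shifts was not tested. The difference in the share of reads outside exons was -7.32 percentage points, -6.62 over all reads and -11.4 to -0.438 with 1 library left out.

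Signs turned for small log2 fold changes: Prkce to -0.0002 with the replicate block, -0.0241 with the covariate and -0.0013 to 0.1485 with 1 library left out (lowest without WT replicate 6); Gphn to -0.0065 (voom), -0.0149 (1 CPM), -0.0551 (covariate) and -0.0375 to 0.0885 with 1 library left out; Fos to -0.388 (voom), -0.0585 (replicate block), -0.175 (covariate) and -0.235 to 0.57 with 1 library left out; Dbp, a circadian factor, to -0.0965 with the replicate block; Chordc1, a chaperone partner, to 0.0545 with GC and length offsets. With 3 libraries per group, leaving out EV replicate 3, EV replicate 5, vehicle replicate 2 or vehicle replicate 3 ended all 8 calls, those over 2-fold included.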
